A study of Homo sapiens with 12 samples.

Results

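The collagen and laminin chains were the genes whose symbol in the raw count table was COL, a number, A and a number, or LAMA, LAMB or LAMC and a number. This rule, which used no measured value, found 56 genes among the 53717 of the table, 44 collagen chains and 12 laminin chains. Of these, 49 (38 collagens and 11 laminins) passed the filter on low counts and were tested, and 7 did not. The cells were H9 cells, an established line of human embryonic stem cells, grown in RSeT medium, which is sold for culture in a naive-type state. Each culture was lipofected with 1 of 3 fluorescein-labelled oligonucleotides at 25 nM, and fluorescent cells were sorted after 48 h for stranded poly(A) RNA sequencing. The first group received ASO-L1, an antisense oligonucleotide against LINE1, a retrotransposon family of the human genome. The second received sO-L1, the sense oligonucleotide of LINE1, and the third received ASO-Ctr, a non-targeting antisense oligonucleotide. All groups also received 0.7 uM Trans-ISRIB, 5 uM emricasan and 10 uM Y-27632, which were removed after 24 h. There were 4 libraries in each group, 12 in all. All of them come from 1 cell line, and only cells that took up the label were sampled. The level of LINE1 RNA was not analysed here, so the knockdown itself has no measurement beside these values.

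Collagens are trimers of alpha chains wound into a triple helix. Fibrillar collagens form the fibres of connective tissue, type IV collagen forms the net of basement membranes, and other classes decorate fibres, anchor them or span the plasma membrane. Laminins are cross-shaped trimers of an alpha, a beta and a gamma chain, and the alpha chain carries the main sites for integrin binding. Pluripotent cells are attached to laminin and type IV collagen in culture and in the embryo, and they make several of these chains themselves. Because each trimer is assembled inside the cell, the ratio of its chains is a quantity of interest in its own right.

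The libraries held 22.8 to 55.1 M counted reads, so that 3 reads correspond to 0.0534 to 0.128 CPM (reads of a gene per M counted reads, with TMM scaling). Libraries of the same replicate number deviated together, and the replicate number was kept as a block in the model. The labels do not say whether replicates were separate cultures, so p-values measure only the spread between these samples. ASO-L1 replicate 1 stood apart by the size of its difference. Across all tested genes the median absolute log2 difference from ASO-Ctr was 0.364 in replicate number 1 and 0.194 to 0.246 in the other 3. The 6 pluripotency markers (POU5F1, NANOG, SOX2, LIN28A, DPPA4 and L1TD1) summed to 6466 to 6713 CPM in ASO-L1, 6552 to 6999 CPM in sO-L1 and 6587 to 6833 CPM in ASO-Ctr libraries. The sum hides moves in both directions. In ASO-L1, 1 of the 6 was called higher and 2 lower against ASO-Ctr, and 1 higher and 3 lower against sO-L1. Calls were common over all tested genes, at 21.2% higher and 23.1% lower against ASO-Ctr and 21.1% and 22.9% against sO-L1. These shares also stand beside the counts of called markers below. Of 8 fibroblast and feeder-type markers, LUM was at 0 in every library and the sum, nearly all of it THY1, was 66.5 to 80.0 CPM in ASO-L1, 46.3 to 54.2 CPM in sO-L1 and 55.2 to 58.3 CPM in ASO-Ctr. Of the 5 tested in this list, 2 were called higher and 0 lower in ASO-L1 against each control. The 8 primitive and parietal endoderm markers, of which SPARC made up most, summed to 311 to 358 CPM in ASO-L1, 239 to 291 CPM in sO-L1 and 233 to 275 CPM in ASO-Ctr. Of its 3 tested markers 2 were called higher and 1 lower in ASO-L1 against each control, and PDGFRA of this list averaged 8.19 CPM in ASO-L1, 17.8 CPM in sO-L1 and 15.3 CPM in ASO-Ctr. For 6 neuroectoderm markers, led by NES, the sums were 528 to 604 CPM in ASO-L1, 425 to 529 CPM in sO-L1 and 392 to 454 CPM in ASO-Ctr. All 3 tested neuroectoderm markers were called higher in ASO-L1 against each control. The 8 trophectoderm markers (CDX2 at 0) summed to 51.0 to 64.3 CPM over all groups, and none was called. The 5 endothelial markers in the table summed to 10.5 to 40.3 CPM in ASO-L1, 9.32 to 22.9 CPM in sO-L1 and 11.4 to 21.6 CPM in ASO-Ctr, and 1 of 3 tested was called higher in ASO-L1 against each control. The part of these markers in the results below was not tested. In bulk RNA, fewer cells of a type and less RNA per cell cannot be told apart.

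Many of these chains were lower in ASO-L1 cells than in either control group, and few were higher. Summed over all chains, collagen RNA came to 705, 763, 759 and 809 CPM in ASO-L1 replicates 1 to 4, 865, 927, 905 and 884 CPM in sO-L1 and 931, 928, 910.4 and 910.6 CPM in ASO-Ctr. All 4 ASO-L1 libraries lay below all 8 others in this sum. The laminin sum was 779, 819.9, 789 and 813 CPM in ASO-L1, 800.2, 866, 833 and 823 CPM in sO-L1 and 882, 914, 866 and 837 CPM in ASO-Ctr, so that ASO-L1 lay below ASO-Ctr but overlapped sO-L1. Against ASO-Ctr, 20 of the 49 tested chains fell and 3 rose with ASO-L1 (edgeR, Benjamini-Hochberg adjusted p under 0.05 over 17264 genes), and 26 passed in neither direction. That is 40.8% lower and 6.12% higher among the chains, beside 23.1% lower and 21.2% higher over all tested genes. Against sO-L1, 21 chains fell, 5 rose and 23 were not called, beside 22.9% lower and 21.1% higher over all genes. The median log2 fold change of the chains was -0.20 against ASO-Ctr and -0.18 against sO-L1, and that of all tested genes was -0.0028 and -0.0032 in these comparisons. The 2 comparisons share the ASO-L1 libraries, and 19 chains fell and 3 rose in both. LAMC3 was called lower against ASO-Ctr alone, while COL21A1 and COL6A1 (lower) and COL26A1 and COL2A1 (higher) were called against sO-L1 alone. The difference between these 2 fold changes is the comparison of sO-L1 with ASO-Ctr, in which none of these 5 chains was called (edgeR). The falls were mostly modest, from 1.12-fold to 2.38-fold against ASO-Ctr, with 2 chains (COL25A1 and LAMA2) lower by more than 2-fold. In 12 of the 23 called chains (52.2%) the ASO-L1 and ASO-Ctr libraries did not overlap, beside 69.9% of all 7652 genes called in this comparison. In 22 of them (95.7%) all 4 replicate numbers differed in the same direction, COL12A1 being the exception, beside 95.1% of all called genes. Without ASO-L1 replicate 1, 19 chains fell and 3 rose against ASO-Ctr, of which 18 and 2 were among those called with it. Over all genes 22% were then lower and 21.2% higher.

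**Figure D1:**
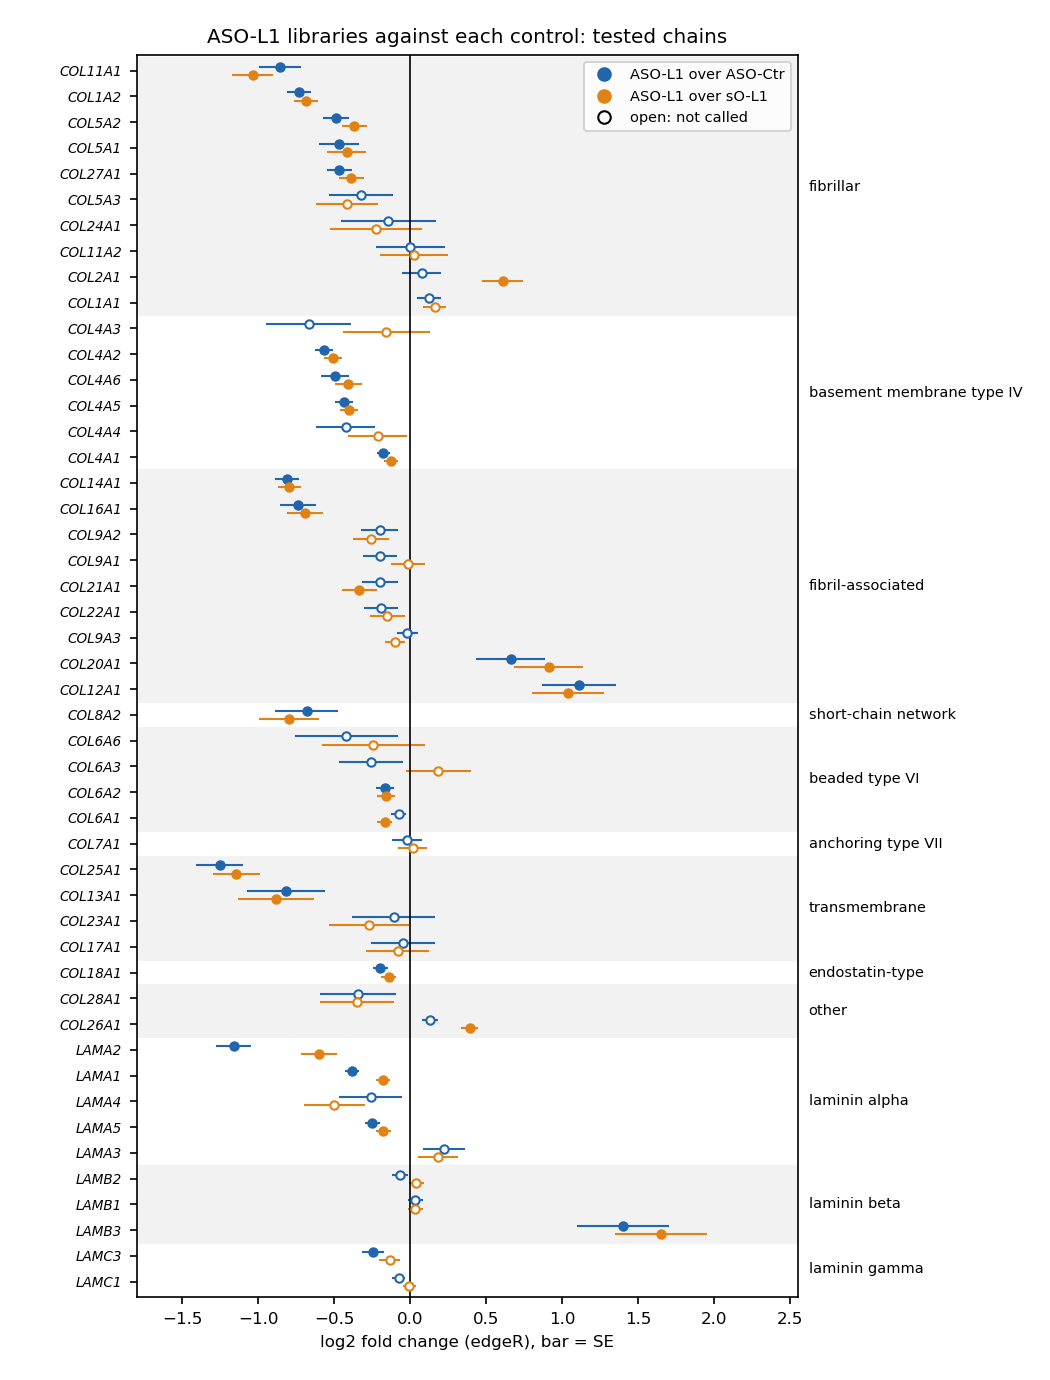
Log2 fold changes of the tested collagen and laminin chains (1 not shown), grouped by class, for ASO-L1 over ASO-Ctr (blue) and ASO-L1 over sO-L1 (orange), with bars for the standard error and open points for chains that were not called. Most points lie left of 0, and LAMB3 and COL12A1 lie farthest to the right.

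Levels of different chains were compared per kilobase of exon (exon lengths of GENCODE v29, on another genome build than the counts). In ASO-Ctr cells LAMB1 was highest, at 37.3 ± 1.15 CPM per kb (SD, n = 4), followed by LAMC1 at 28.3 ± 1.44 and COL18A1 at 27.4 ± 1.59, which did not differ beyond their spread. COL6A1 (20.2 ± 2.50), COL6A2 (17.5 ± 3.07), LAMA5 (16.1 ± 1.56), COL4A1 (14.5 ± 1.75) and COL26A1 (14.4 ± 0.825) came next on this scale, each within the spread of its neighbour. COL1A2 was at 11.3 ± 1.61 and LAMA1 at 10.7 ± 0.885 CPM per kb. So the chains of highest level were a laminin beta and a gamma chain and the endostatin-bearing collagen COL18A1. Behind them came COL6A1, COL6A2, LAMA5, COL4A1 and COL26A1, while other type VI and type IV chains were lower. The 7 chains under the filter had 2 to 86 reads in all 12 libraries together, and they were COL3A1, COL6A5, COL8A1, COL10A1, COL15A1, COL19A1 and LAMB4. COL3A1, a main collagen of fibroblasts, had 6 reads in all.

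All 6 type IV chains, which build the basement membrane net, had fitted log2 fold changes below 0 with ASO-L1 (median -0.47 against ASO-Ctr and -0.31 against sO-L1). All 6 were also below 0 with sO-L1 against ASO-Ctr, by less (median -0.072) and with 0 called. With ASO-L1, 4 of them (COL4A1, COL4A2, COL4A5 and COL4A6) fell against both controls. That is 66.7% lower, beside 23.1% of all tested genes against ASO-Ctr and 22.9% against sO-L1. The 6 genes lie in 3 head-to-head pairs, each sharing the DNA between its start sites. COL4A1 and COL4A2 make the common trimer of 2 kinds of chain and start 126 bases apart. That stretch is printed here because the paired genes moved by unequal amounts, and the sequence before COL4A5 because it lies in the pair whose chains were both called with similar fold changes. Both are from RefSeq, build GRCh38.p14, 5′ to 3′ on the plus strand, at chr13:110307158-110307283 and chrX:108439588-108439837. Capitals mark GGGCGG and CCAAT read on either strand, and CCAAT on the minus strand appears as ATTGG.
COL4A1-COL4A2: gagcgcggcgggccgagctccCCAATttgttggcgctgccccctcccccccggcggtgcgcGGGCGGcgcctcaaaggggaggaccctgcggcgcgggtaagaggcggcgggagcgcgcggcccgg
COL4A5: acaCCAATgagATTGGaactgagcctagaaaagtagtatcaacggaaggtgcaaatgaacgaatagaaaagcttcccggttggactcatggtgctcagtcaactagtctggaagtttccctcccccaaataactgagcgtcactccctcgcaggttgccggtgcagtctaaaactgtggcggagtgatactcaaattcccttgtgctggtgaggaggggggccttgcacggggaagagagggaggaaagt
In the 250 bases before each start, 4 motifs were searched on both strands, and no matches overlap in these stretches. The GC box, spelled GGGCGG, was found in 58.2% of the 55 promoters of the 41 chains with an entry and in 42.6% of all 35116 RefSeq promoters. The CCAAT box, spelled as its name, was found in 25.5% of the chains' promoters and 32.0% of all. The TATA box (TATAAA) was in 14.5% of the chains' promoters and 10.7% of all. The last motif, TGANTCA, bound by FOS and JUN dimers, was in 5.45% of the chains' promoters and 6.57% of all. The stretch between COL4A1 and COL4A2 holds 1 GGGCGG and 1 CCAAT, and the COL4A5 stretch holds 2 CCAAT. A match of letters is a description of these windows and not a measured binding site.

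COL4A2 had 42.2, 64.4, 72.3 and 82.4 CPM in ASO-L1 replicates 1 to 4, 67.6, 89.4, 106 and 106 CPM in sO-L1 and 74.5, 93.0, 109 and 105 CPM in ASO-Ctr. The replicate numbers differed in level in every group, so that the ranges overlapped, but within each number ASO-L1 lay below both controls. COL4A2 fell by 0.57 on the log2 scale against ASO-Ctr (SE 0.06, 1.48-fold lower, adjusted p = 1.04e-06) and by 0.51 against sO-L1 (adjusted p = 3.11e-06). Its partner COL4A1 had 76.2, 95.1, 107 and 109.8 CPM in ASO-L1 replicates 1 to 4, 87.3, 101, 119 and 116 CPM in sO-L1 and 90.7, 110.4, 114 and 122 CPM in ASO-Ctr. Here too the ranges overlapped and ASO-L1 was the lowest of its replicate number each time, but by less. COL4A1 fell by 0.18 on the log2 scale against ASO-Ctr (SE 0.04, adjusted p = 0.00431) and by 0.13 against sO-L1 (adjusted p = 0.0295). That call did not hold without the replicate block (COL4A1 adjusted p = 0.270 against ASO-Ctr and 0.440 against sO-L1) or without replicate number 2 (0.0543 and 0.0927), and against sO-L1 also without a filter (0.0770), without replicate number 3 or 4 or without any 1 of ASO-L1 replicate 2, sO-L1 replicates 1, 3 and 4 and ASO-Ctr replicate 4.

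The ratio of COL4A1 to COL4A2 counts within a library needs no scaling between libraries. It was 1.81, 1.48, 1.48 and 1.33 in ASO-L1, 1.29, 1.13, 1.12 and 1.10 in sO-L1 and 1.22, 1.19, 1.04 and 1.15 in ASO-Ctr libraries. Every ASO-L1 library lay above every control library. The ratio was 1.32-fold higher with ASO-L1 than with ASO-Ctr and 1.31-fold higher than with sO-L1, in 4 of 4 replicate numbers. The exact two-sided permutation p was 0.0286 in both, the smallest that 4 libraries against 4 allow, and 0.15 after Benjamini-Hochberg adjustment over 21 tests of 7 chain pairs. Unlike the edgeR model, this permutation took no account of the replicate number, although replicate 1 had the highest ratio in every group. The 7 chain pairs were chosen with the values known, and after adjustment no pair passed. With so few libraries, a few pairs at the smallest p could not pass this adjustment, so its outcome decides nothing about them. COL4A2 shares exon sequence with the opposite-strand genes COL4A2-AS1 and COL4A2-AS2 in GENCODE v29, over at most 81 bases in 1 exon, and no source here states whether the counting used strand.

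COL4A5 and COL4A6, the X-linked pair of basement membrane chains, moved alike. COL4A5 had 21.0, 24.5, 24.4 and 26.1 CPM with ASO-L1, 27.9, 35.4, 31.1 and 32.4 with sO-L1 and 27.3, 36.2, 33.7 and 32.9 with ASO-Ctr. All ASO-L1 libraries lay below all others. COL4A5 fell by 0.44 on the log2 scale against ASO-Ctr (SE 0.06, 1.35-fold lower, adjusted p = 1.46e-05) and by 0.40 against sO-L1 (adjusted p = 3.03e-05). COL4A6 had 4.90, 7.01, 8.04 and 7.53 CPM in the ASO-L1 libraries, 7.91, 7.88, 10.7 and 10.1 in sO-L1 and 8.00, 9.12, 11.1 and 10.5 in ASO-Ctr. The ranges overlapped by the high ASO-L1 replicate 3, and each ASO-L1 library lay below the controls of its own number. COL4A6 fell by 0.49 against ASO-Ctr (log2, SE 0.09, adjusted p = 0.000305) and by 0.41 against sO-L1 (adjusted p = 0.00145, and 0.0510 without the replicate block). The ratio of COL4A5 to COL4A6 averaged 3.57 ± 0.524 in ASO-L1, 3.53 ± 0.685 in sO-L1 and 3.39 ± 0.418 in ASO-Ctr libraries (SD, n = 4), and its ranges overlapped.

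The third pair, COL4A3 and COL4A4, known from the kidney filter, had low levels. COL4A3 had 0.433, 0.800, 0.378 and 0.377 CPM with ASO-L1, 0.516, 0.854, 0.294 and 0.556 with sO-L1 and 0.728, 0.835, 0.693 and 0.869 with ASO-Ctr. COL4A4 had 2.02, 1.96, 1.13 and 1.27 CPM in the ASO-L1 libraries, 1.60, 2.40, 1.62 and 1.70 in sO-L1 and 1.88, 2.05, 1.95 and 2.58 in ASO-Ctr. Their ranges overlapped between groups, and neither was called. COL4A3 had a log2 fold change of -0.67 (SE 0.28, adjusted p = 0.0644) and COL4A4 one of -0.42 (SE 0.19, adjusted p = 0.0874) against ASO-Ctr. Against sO-L1 these were only -0.16 (adjusted p = 0.686) for COL4A3 and -0.21 (adjusted p = 0.394) for COL4A4. With sO-L1 against ASO-Ctr, COL4A3 had -0.51 (adjusted p = 0.759) and COL4A4 -0.21 (adjusted p = 0.926). The calls for ASO-L1 against ASO-Ctr depended on the setting. Without ASO-L1 replicate 1 the adjusted p of COL4A4 was 0.0135, and without ASO-Ctr replicate 2 both chains were called. With limma on the authors' deposited log2 table the adjusted p against ASO-Ctr was 0.0119 for COL4A3 and 0.0175 for COL4A4. That table was already batch corrected and was fitted without a block, so these values may be too small.

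**Figure D2:**
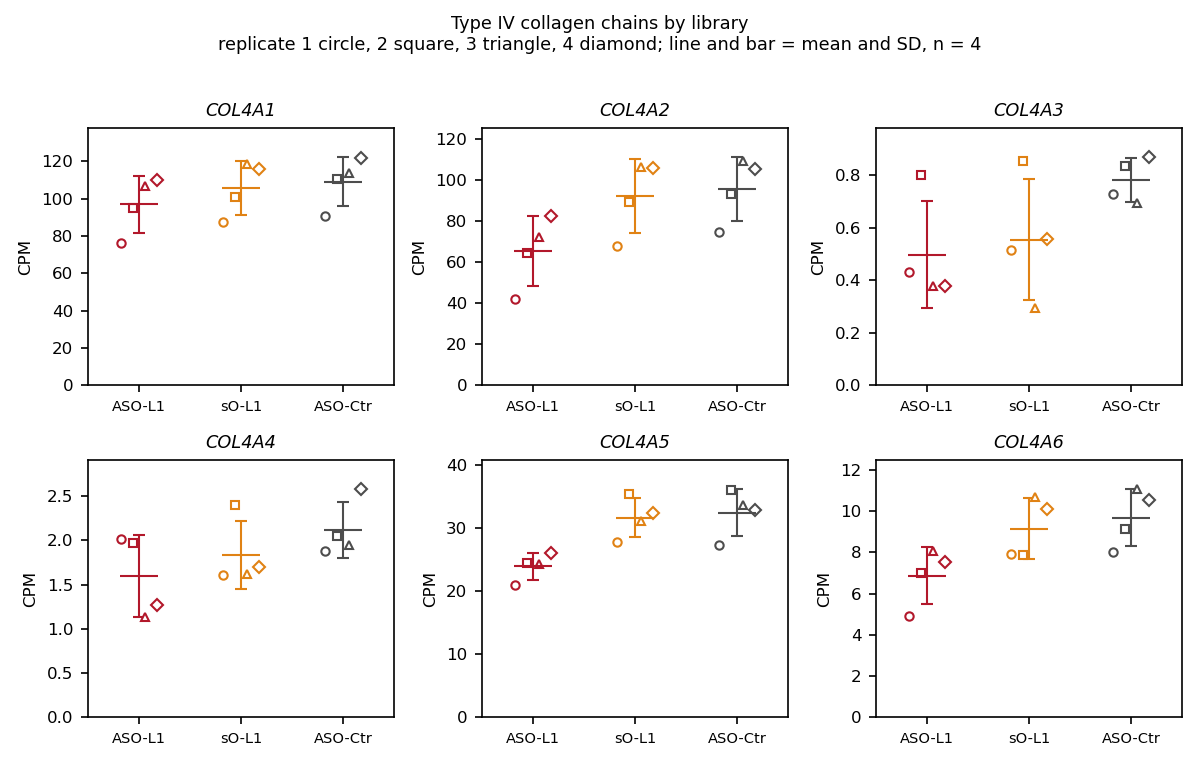
CPM of the 6 type IV collagen chains in each library, by group (ASO-L1, sO-L1, ASO-Ctr), with a marker shape for each replicate number and lines and bars for the mean and SD of 4 libraries. COL4A5 in ASO-L1 cells lies below both control groups, and COL4A2 falls more than COL4A1.

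Of the 11 tested laminins, 4 (36.4%) fell and 1 (9.09%) rose with ASO-L1 against ASO-Ctr, with a median log2 fold change of -0.076. Against sO-L1, 3 (27.3%) fell and 1 (9.09%) rose, with a median of -0.0068. Over all tested genes 23.1% were lower and 21.2% higher against ASO-Ctr, and 22.9% and 21.1% against sO-L1. The share of laminins lower against sO-L1 was thus near that of all genes. By class, 3 of 5 alpha chains (60%) and 0 of 3 beta chains fell against each control. Of 3 gamma chains, 1 fell against ASO-Ctr and 0 against sO-L1. The most abundant beta and gamma chains were not called. The sequences before the start of LAMA2 and of the first listed start of LAMB3 are shown because these chains had the largest change in each direction (RefSeq, GRCh38.p14). LAMA2 is at chr6:128882888-128883137 on the plus strand and LAMB3 at chr1:209652426-209652675 on the minus strand. Both are printed 5′ to 3′ in the direction of the gene, and capitals mark CCGCCC, which is GGGCGG on the opposite strand.
LAMA2: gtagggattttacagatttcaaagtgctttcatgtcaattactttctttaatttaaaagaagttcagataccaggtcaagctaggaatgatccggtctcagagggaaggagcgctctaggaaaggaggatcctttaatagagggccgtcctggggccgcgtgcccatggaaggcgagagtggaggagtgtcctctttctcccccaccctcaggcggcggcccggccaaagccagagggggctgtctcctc
LAMB3: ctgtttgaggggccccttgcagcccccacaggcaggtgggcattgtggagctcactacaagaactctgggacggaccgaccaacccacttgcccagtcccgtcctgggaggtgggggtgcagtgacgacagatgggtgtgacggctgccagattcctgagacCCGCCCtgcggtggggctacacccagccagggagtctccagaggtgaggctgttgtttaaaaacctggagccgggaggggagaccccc
None of the 4 searched motifs is in the LAMA2 window, and the LAMB3 window holds 1 GGGCGG on the opposite strand.

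LAMA2, the alpha chain of muscle and nerve basement membranes, had 5.62, 5.84, 4.40 and 5.65 CPM with ASO-L1, 10.6, 9.31, 6.18 and 7.01 with sO-L1 and 16.2, 12.4, 11.2 and 9.19 with ASO-Ctr. ASO-L1 libraries lay below all others, and sO-L1 libraries were intermediate and overlapped ASO-Ctr. LAMA2 fell by 1.16 on the log2 scale against ASO-Ctr (SE 0.12, 2.24-fold lower, 95% interval 1.89 to 2.65, adjusted p = 7.35e-07). Against sO-L1 it fell by 0.60 (SE 0.12, 1.51-fold lower, adjusted p = 0.000588). LAMA1, the first alpha chain of the early embryo, had 72.4, 90.6, 77.8 and 83.0 CPM in the ASO-L1 libraries, 79.1, 104, 95.1 and 89.7 in sO-L1 and 97.6, 118, 102 and 104 in ASO-Ctr. Its ASO-L1 libraries lay below all ASO-Ctr libraries and overlapped sO-L1. LAMA1 fell by 0.38 against ASO-Ctr (log2, SE 0.05, adjusted p = 4.93e-06) and by 0.18 against sO-L1 (adjusted p = 0.00406), the second call being lost without the replicate block (LAMA1 adjusted p = 0.111) or without replicate number 3 (0.0728).

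LAMA5, the most abundant alpha chain here and part of the laminin that supports human pluripotent cells in culture, had 172, 169, 137 and 141 CPM with ASO-L1, 168, 191, 167 and 171 with sO-L1 and 189, 206, 172 and 167 with ASO-Ctr. The ranges overlapped because replicates 1 and 2 were higher than 3 and 4 in ASO-L1. LAMA5 fell by 0.25 against ASO-Ctr (log2, SE 0.05, 1.19-fold lower, adjusted p = 0.000662) and by 0.18 against sO-L1 (adjusted p = 0.00801). The second of these calls did not hold without the block (LAMA5 adjusted p = 0.119), without sO-L1 replicate 3 or 4 or without replicate number 2, 3 or 4. LAMA3, the epithelial chain, and LAMA4, the vascular chain, averaged 3.40 ± 0.421 and 1.13 ± 0.254 CPM in ASO-L1 cells, against 2.95 ± 0.416 and 1.35 ± 0.275 CPM in ASO-Ctr cells (SD, n = 4), and neither was called.

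LAMB1, the common beta chain, had 201, 222, 266 and 262 CPM in the ASO-L1 libraries, 214, 226, 242 and 244 in sO-L1 and 225, 227, 240.4 and 235 in ASO-Ctr. LAMC1, the common gamma chain, had 224, 223, 194 and 207 CPM with ASO-L1, 222, 217, 212 and 199 with sO-L1 and 229, 233, 222 and 208 with ASO-Ctr. The groups overlapped in both, and for LAMC1 the ASO-L1 library lay below the ASO-Ctr library of its own number each time, with ASO-Ctr replicates 1 and 2 above every ASO-L1 library. The 95% interval of the fold change of ASO-L1 over ASO-Ctr was 0.951 to 1.10 for LAMB1 and 0.892 to 1.01 for LAMC1, which leaves room for changes of that size. With limma on the authors' deposited log2 table, already batch corrected and fitted without a block, LAMC1 was called lower against ASO-Ctr (adjusted p = 0.0495). In LAMB1 the spread was widest in ASO-L1, where replicate 1 was lowest, and without replicate number 1 LAMB1 was called higher (log2 fold change 0.10, adjusted p = 0.0212). LAMB2, the beta chain of synapse and kidney, had 44.5, 44.3, 39.3 and 41.3 CPM in the ASO-L1 libraries, 42.7, 46.4, 36.5 and 39.4 in sO-L1 and 48.8, 48.9, 39.8 and 40.3 in ASO-Ctr, with overlap and an interval of 0.885 to 1.03 for ASO-L1 over ASO-Ctr.

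LAMC3 had 36.4, 45.7, 53.5 and 56.2 CPM with ASO-L1, 43.7, 53.1, 56.8 and 56.0 with sO-L1 and 55.4, 50.8, 60.8 and 58.9 with ASO-Ctr. Its ASO-L1 replicate 1 was the lowest library and the groups overlapped. LAMC3 fell by 0.25 against ASO-Ctr (log2, SE 0.07, adjusted p = 0.00932, and 0.122 without the replicate block) and was not called against sO-L1. LAMB3, a beta chain of epithelial laminin, was low and rose. It had 2.67, 0.752, 1.58 and 0.869 CPM in the ASO-L1 libraries, 0.659, 0.374, 0.265 and 0.458 in sO-L1 and 0.599, 0.525, 0.409 and 0.464 in ASO-Ctr. The ASO-L1 libraries lay above all others, with replicate 1 highest. LAMB3 rose by 1.40 on the log2 scale against ASO-Ctr (SE 0.30, 2.64-fold, 95% interval 1.70 to 4.10, adjusted p = 0.00118) and by 1.65 against sO-L1 (SE 0.30, adjusted p = 0.000294). Without ASO-L1 replicate 1 the LAMB3 log2 fold change against ASO-Ctr was 1.19 (adjusted p = 0.00314).

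**Figure D3:**
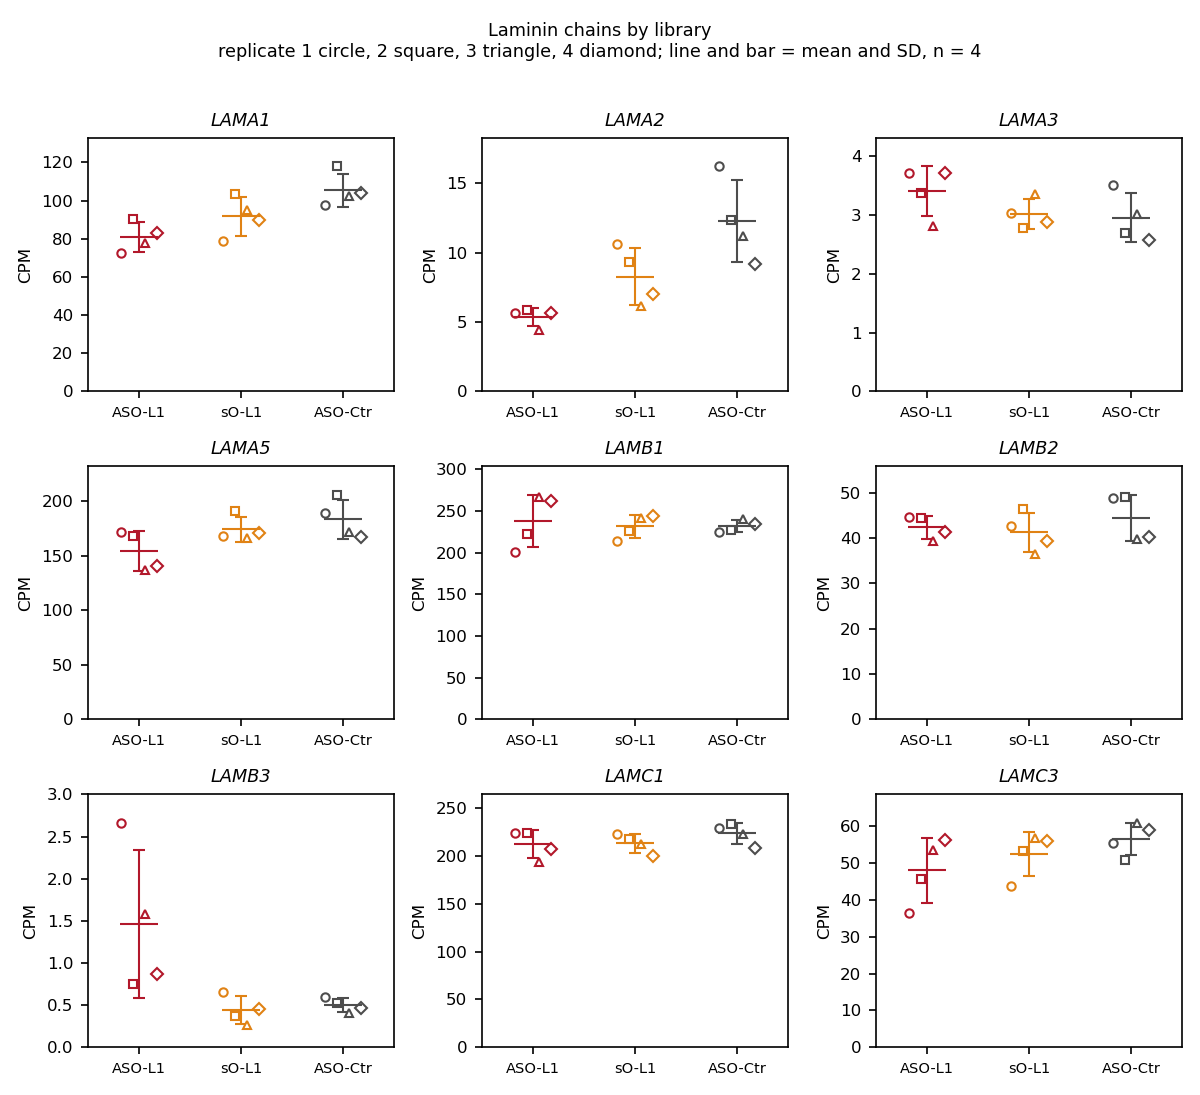
CPM of 9 laminin chains in each library, by group, with a marker shape for each replicate number and lines and bars for the mean and SD of 4 libraries. LAMA1 and LAMA2 lie lower in ASO-L1 than in ASO-Ctr, LAMB1 and LAMC1 overlap, and LAMB3 lies higher in ASO-L1.

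Of 10 tested fibrillar chains, 5 fell against both controls (COL1A2, COL5A1, COL5A2, COL11A1 and COL27A1). That is 50% lower, beside 23.1% of all tested genes against ASO-Ctr and 22.9% against sO-L1. COL1A2, the second chain of type I collagen, had 33.8, 41.9, 31.8 and 38.9 CPM with ASO-L1, 61.9, 69.2, 57.4 and 48.4 with sO-L1 and 69.6, 68.0, 54.1 and 53.5 with ASO-Ctr. The ASO-L1 libraries lay below all 8 others. COL1A2 fell by 0.73 against ASO-Ctr (log2, SE 0.08, 1.66-fold lower, adjusted p = 1.57e-06) and by 0.69 against sO-L1 (adjusted p = 3.11e-06). COL1A1, the first chain of the same trimer, had 15.1, 15.9, 11.8 and 10.4 CPM in the ASO-L1 libraries, 13.5, 14.7, 9.65 and 9.79 in sO-L1 and 15.8, 14.8, 9.85 and 8.98 in ASO-Ctr. Replicates 1 and 2 were higher than 3 and 4 in every group, and the groups overlapped. COL1A1 was not called (ASO-L1 over ASO-Ctr log2 fold change 0.12, 95% interval of the fold 0.973 to 1.22, adjusted p = 0.210).

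The count ratio of COL1A1 to COL1A2 was 0.448, 0.380, 0.370 and 0.267 in ASO-L1, 0.219, 0.213, 0.168 and 0.202 in sO-L1 and 0.227, 0.217, 0.182 and 0.168 in ASO-Ctr libraries. Every ASO-L1 library was above every control. The ratio was 1.83-fold higher than with ASO-Ctr and 1.81-fold higher than with sO-L1, in 4 of 4 replicate numbers (exact two-sided permutation p = 0.0286 each, adjusted p = 0.15 over the 21 tests). In type I collagen trimers COL1A1 chains outnumber COL1A2 chains, whereas here COL1A2 RNA was the higher per kilobase of exon, at 6.76 ± 0.858 CPM per kb in ASO-L1 and 11.3 ± 1.61 in ASO-Ctr, beside COL1A1 at 1.98 ± 0.394 in ASO-L1 and 1.84 ± 0.510 in ASO-Ctr (SD, n = 4). The ratios of the other pairs (COL6A1 to COL6A2, LAMA1 to LAMA5, LAMB1 to LAMC1 and COL4A3 to COL4A4) had overlapping ranges and adjusted p of 0.514 or more for ASO-L1 against ASO-Ctr.

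**Figure D4:**
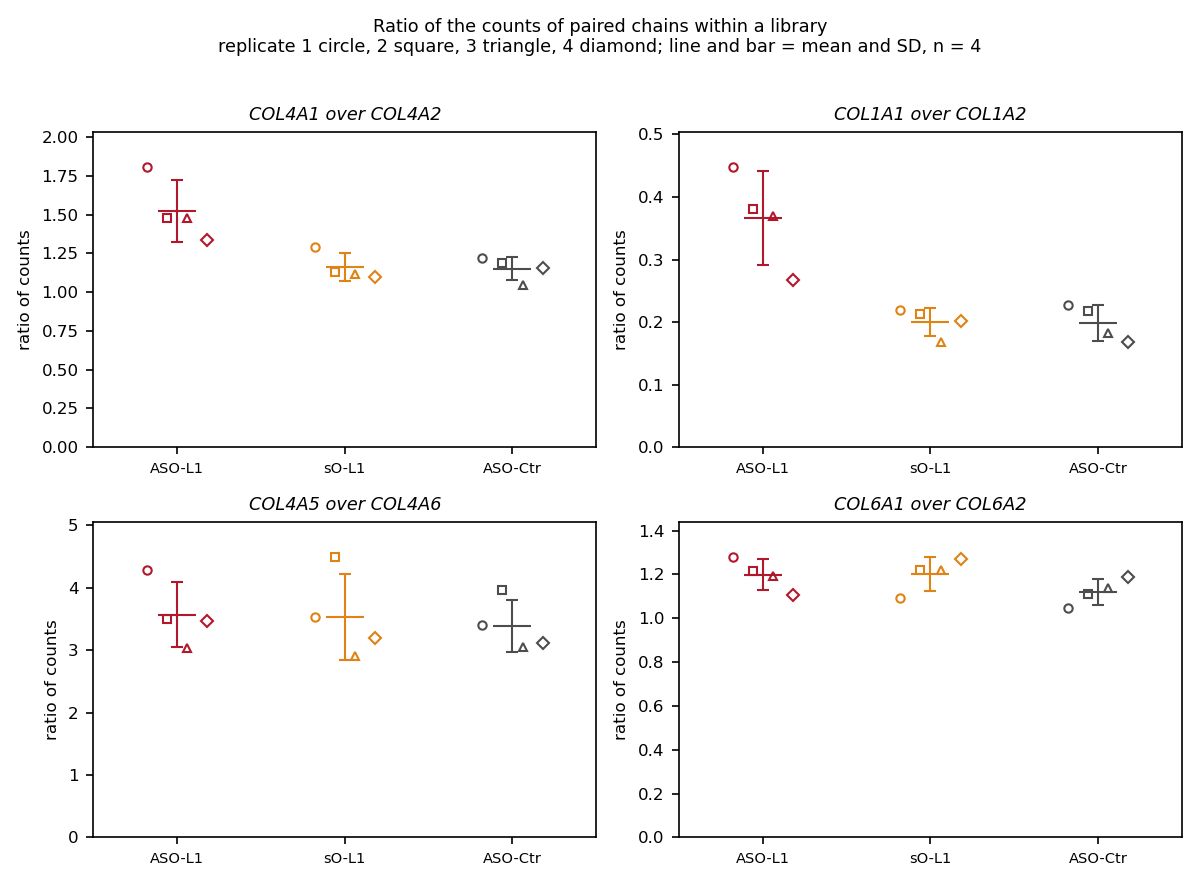
Ratio of the counts of 2 chains within each library, by group, for COL4A1 over COL4A2, COL1A1 over COL1A2, COL4A5 over COL4A6 and COL6A1 over COL6A2, with lines and bars for the mean and SD of 4 libraries. The first 2 ratios are higher in every ASO-L1 library than in any control library, and the other 2 overlap.

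COL5A2, a minor chain of fibres that type I collagen builds, had 13.1, 15.2, 10.5 and 12.6 CPM with ASO-L1, 17.2, 17.4, 16.7 and 15.0 with sO-L1 and 20.2, 17.6, 16.9 and 17.7 with ASO-Ctr. Its ASO-L1 libraries lay below all ASO-Ctr libraries, and replicate 2 overlapped sO-L1. COL5A2 fell by 0.49 against ASO-Ctr (log2, SE 0.08, adjusted p = 0.000182) and by 0.37 against sO-L1 (adjusted p = 0.00197). COL5A1, its partner, had 3.71, 4.29, 5.46 and 4.98 CPM in the ASO-L1 libraries, 6.47, 6.51, 5.47 and 6.06 in sO-L1 and 5.74, 7.26, 7.18 and 5.33 in ASO-Ctr. It fell by 0.47 against ASO-Ctr (log2, SE 0.13, adjusted p = 0.00738) and by 0.42 against sO-L1 (adjusted p = 0.0143), but with overlap against ASO-Ctr and not without ASO-L1 replicate 2, and against sO-L1 also not without sO-L1 replicate 1. The related COL5A3 averaged 0.910 ± 0.503 CPM in ASO-L1 and 1.11 ± 0.397 CPM in ASO-Ctr and was not called.

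COL11A1, a minor chain of cartilage fibres, had 3.68, 4.78, 3.64 and 4.93 CPM with ASO-L1, 9.14, 11.2, 7.68 and 7.30 with sO-L1 and 8.82, 11.0, 6.17 and 5.65 with ASO-Ctr. All ASO-L1 libraries lay below all others, and in the controls replicates 1 and 2 were above 3 and 4. COL11A1 fell by 0.86 against ASO-Ctr (log2, SE 0.14, 1.81-fold lower, adjusted p = 9.21e-05) and by 1.04 against sO-L1 (2.05-fold lower, adjusted p = 1.21e-05). COL27A1, also of cartilage, had 18.2, 22.3, 22.2 and 22.2 CPM in the ASO-L1 libraries, 23.1, 33.4, 28.4 and 26.3 in sO-L1 and 31.0, 29.8, 30.7 and 25.9 in ASO-Ctr. ASO-L1 libraries were again below all others, with replicate 1 lowest. COL27A1 fell by 0.47 against ASO-Ctr (log2, SE 0.08, adjusted p = 0.000263) and by 0.39 against sO-L1 (adjusted p = 0.00123). COL2A1, the main cartilage chain, had 4.11, 3.32, 4.16 and 3.30 CPM with ASO-L1, 2.35, 2.10, 2.88 and 2.46 with sO-L1 and 4.15, 3.41, 3.18 and 3.33 with ASO-Ctr. Here the sO-L1 libraries were the low ones, below all ASO-L1 and all ASO-Ctr libraries. COL2A1 rose by 0.61 with ASO-L1 against sO-L1 (log2, SE 0.13, adjusted p = 0.00134) and had a log2 fold change of 0.08 against ASO-Ctr. The remaining COL11A2 and COL24A1 stayed under 1 CPM on average in all groups and were not called.

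Fibril-associated chains, which coat or link fibres, had 2 of 9 tested called lower and 2 higher against ASO-Ctr, which is 22.2% each way and near the shares over all tested genes (23.1% lower and 21.2% higher). COL14A1, a chain that binds fibres near surfaces, had 21.0, 34.1, 31.0 and 39.9 CPM in the ASO-L1 libraries, 45.5, 56.7, 57.6 and 56.4 in sO-L1 and 43.9, 61.9, 58.1 and 55.6 in ASO-Ctr. All ASO-L1 libraries lay below all others. COL14A1 fell by 0.81 against ASO-Ctr (log2, SE 0.08, 1.75-fold lower, adjusted p = 5.20e-07) and by 0.79 against sO-L1 (adjusted p = 6.45e-07). COL16A1 averaged 2.61 ± 0.635 CPM in ASO-L1, 4.20 ± 0.765 CPM in sO-L1 and 4.33 ± 0.514 CPM in ASO-Ctr (SD, n = 4), without overlap. COL16A1 fell by 0.74 against ASO-Ctr (log2, adjusted p = 8.41e-05) and by 0.69 against sO-L1 (adjusted p = 0.000141).

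COL12A1, a relative of COL14A1 found in tendon and other stretched tissue, moved the other way. COL12A1 had 6.42, 3.98, 1.68 and 2.58 CPM with ASO-L1, 1.63, 1.83, 1.59 and 1.73 with sO-L1 and 1.58, 1.60, 1.70 and 1.48 with ASO-Ctr. The rise was largest in ASO-L1 replicate 1, and replicate 3 was not above ASO-Ctr replicate 3. COL12A1 rose by 1.11 against ASO-Ctr (log2, SE 0.24, 2.16-fold, 95% interval 1.51 to 3.08, adjusted p = 0.00136) and by 1.04 against sO-L1 (adjusted p = 0.00186). Without ASO-L1 replicate 1 the COL12A1 log2 fold change against ASO-Ctr was 0.78 (adjusted p = 0.000808). COL20A1 averaged 1.30 ± 0.395 CPM in ASO-L1, 0.672 ± 0.158 CPM in sO-L1 and 0.817 ± 0.267 CPM in ASO-Ctr. It rose by 0.66 against ASO-Ctr (log2, SE 0.23, adjusted p = 0.0248) and by 0.91 against sO-L1 (adjusted p = 0.00359). The first call was lost without ASO-L1 replicate 1 or 3, without ASO-Ctr replicate 2 or 3, without the block (COL20A1 adjusted p = 0.0765) and with DESeq2 (0.0817).

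COL21A1 had 5.66, 4.19, 3.23 and 4.61 CPM in the ASO-L1 libraries, 6.30, 5.36, 5.38 and 5.11 in sO-L1 and 5.27, 5.28, 4.63 and 4.87 in ASO-Ctr, with overlap throughout. Against sO-L1 it fell by 0.33 (log2, SE 0.11, adjusted p = 0.0256), with no call against ASO-Ctr. The call was lost without ASO-L1 replicate 2 or 3, without sO-L1 replicate 3, without the block (COL21A1 adjusted p = 0.0913) and with DESeq2 (0.0566). The type IX chains COL9A1, COL9A2 and COL9A3, which link to cartilage fibres, and COL22A1 were not called in any comparison. COL9A3 was the highest of them per kilobase, at 10.4 ± 0.712 CPM per kb in ASO-L1, 11.1 ± 0.680 in sO-L1 and 10.6 ± 1.03 in ASO-Ctr.

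The largest relative fall among collagens was in COL25A1, a transmembrane collagen of neurons. The windows before COL25A1 and COL12A1 are shown as those of the collagens with the largest change in each direction, from RefSeq, GRCh38.p14, at chr4:109302659-109302908 and chr6:75206054-75206303, both on the minus strand and printed in the direction of the gene. Capitals mark CCGCCC, which is GGGCGG on the opposite strand.
COL25A1: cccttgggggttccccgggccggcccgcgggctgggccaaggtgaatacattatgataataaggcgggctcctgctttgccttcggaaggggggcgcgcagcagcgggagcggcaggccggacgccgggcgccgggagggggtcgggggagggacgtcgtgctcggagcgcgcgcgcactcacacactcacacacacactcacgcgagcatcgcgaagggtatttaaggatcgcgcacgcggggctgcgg
COL12A1: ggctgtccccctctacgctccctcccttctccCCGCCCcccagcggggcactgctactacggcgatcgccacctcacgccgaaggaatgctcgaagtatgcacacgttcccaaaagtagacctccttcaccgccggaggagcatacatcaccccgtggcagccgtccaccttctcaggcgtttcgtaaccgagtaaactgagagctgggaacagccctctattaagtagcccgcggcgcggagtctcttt
The COL25A1 window holds none of the 4 motifs and the COL12A1 window holds 1 GGGCGG.
COL25A1 had 1.69, 2.74, 1.82 and 2.69 CPM with ASO-L1, 6.13, 5.43, 4.44 and 4.03 with sO-L1 and 5.95, 6.18, 4.12 and 5.42 with ASO-Ctr. ASO-L1 libraries lay below all others. COL25A1 fell by 1.25 against ASO-Ctr (log2, SE 0.15, 2.38-fold lower, 95% interval 1.90 to 2.99, adjusted p = 6.53e-06) and by 1.14 against sO-L1 (adjusted p = 1.59e-05). The transmembrane COL13A1 averaged 0.605 ± 0.0548 CPM in ASO-L1, 1.12 ± 0.192 CPM in sO-L1 and 1.12 ± 0.427 CPM in ASO-Ctr. It fell by 0.82 against ASO-Ctr (log2, SE 0.26, adjusted p = 0.0163) and by 0.88 against sO-L1 (adjusted p = 0.00894). The COL13A1 call against ASO-Ctr did not hold without ASO-L1 replicate 1 or ASO-Ctr replicate 1 (adjusted p = 0.0645 and 0.0948), and that against sO-L1 not without sO-L1 replicate 2. COL17A1 of epithelia and COL23A1 were not called.

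**Figure D5:**
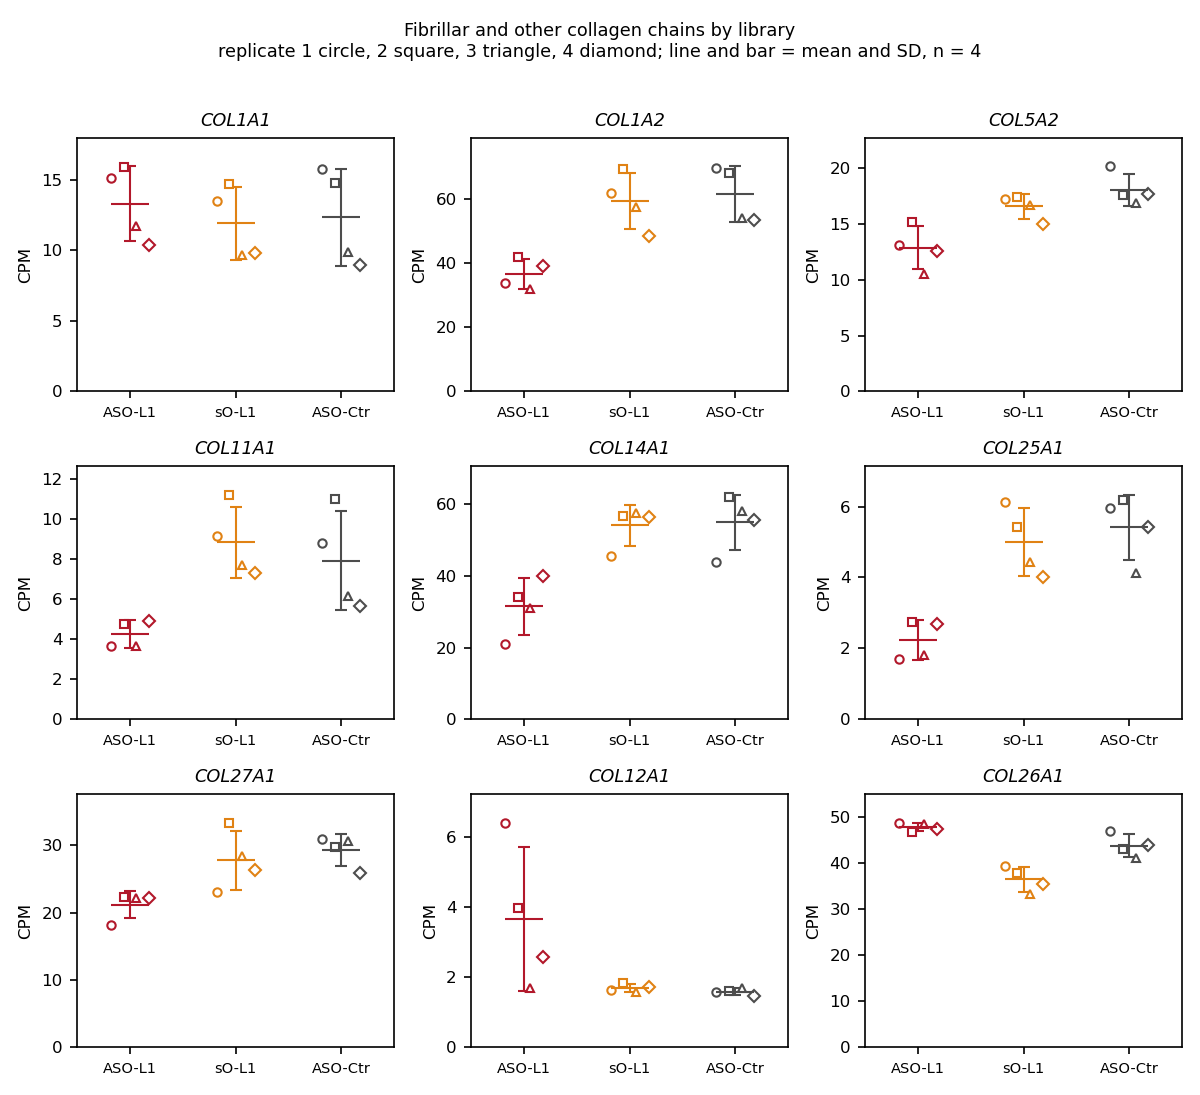
CPM of 9 fibrillar and other collagen chains in each library, by group, with a marker shape for each replicate number and lines and bars for the mean and SD of 4 libraries. COL1A2, COL11A1, COL14A1, COL25A1 and COL27A1 lie lower in every ASO-L1 library than in any control library, COL1A1 overlaps, and COL12A1 is highest in ASO-L1 replicate 1.

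The chains of beaded type VI collagen and COL18A1, abundant in these cells, changed little. COL6A1 had 90.7, 86.6, 75.2 and 72.5 CPM in the ASO-L1 libraries, 96.5, 103, 82.6 and 83.2 in sO-L1 and 99.7, 87.7, 75.7 and 79.6 in ASO-Ctr. COL6A2 had 71.0, 71.3, 63.0 and 65.5 CPM with ASO-L1, 88.2, 84.0, 67.6 and 65.4 with sO-L1 and 95.2, 79.0, 66.4 and 67.0 with ASO-Ctr. In both, replicates 1 and 2 were above 3 and 4 and the groups overlapped. COL6A2 fell by 0.17 against ASO-Ctr (log2, SE 0.06, 1.12-fold lower, adjusted p = 0.0285) and by 0.16 against sO-L1 (adjusted p = 0.0340), and COL6A1 fell by 0.17 against sO-L1 (adjusted p = 0.00960) but not against ASO-Ctr. None of these 3 calls held without the replicate block (COL6A2 adjusted p = 0.227 and 0.248, COL6A1 0.188), and for COL6A2 dropping any 1 of ASO-L1 replicates 1 and 2 ended both calls. The COL6A2 call against ASO-Ctr was also lost without sO-L1 replicate 3 or ASO-Ctr replicate 1 or 3, and that against sO-L1 without sO-L1 replicate 1, 2 or 3 or ASO-Ctr replicate 3 or 4. COL6A1 against sO-L1 was lost without sO-L1 replicate 2 or without replicate number 2 or 4. COL6A3 and COL6A6 were low and not called.

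COL18A1, the source of endostatin in basement membranes, had 149.6, 149, 169.6 and 186 CPM in the ASO-L1 libraries, 181, 165, 189.7 and 185 in sO-L1 and 191, 171, 194 and 192 in ASO-Ctr. Replicate 2 was the lowest library of both ASO-Ctr and sO-L1, lower in sO-L1, and both groups overlapped ASO-L1. COL18A1 fell by 0.20 against ASO-Ctr (log2, SE 0.05, 1.15-fold lower, adjusted p = 0.00282) and by 0.14 against sO-L1 (adjusted p = 0.0216, lost without ASO-L1 replicate 2 or 3, without sO-L1 replicate 1, 2 or 3 and without the block, where the COL18A1 adjusted p was 0.150). COL8A2, a short-chain collagen of vessels and cornea, averaged 0.918 ± 0.293 CPM in ASO-L1, 1.60 ± 0.350 CPM in sO-L1 and 1.496 ± 0.440 CPM in ASO-Ctr. It fell by 0.68 against ASO-Ctr (log2, SE 0.21, adjusted p = 0.0126) and by 0.80 against sO-L1 (adjusted p = 0.00381), the first call being lost without ASO-L1 replicate 3, without ASO-Ctr replicate 3 or without the block (COL8A2 adjusted p = 0.0623). COL26A1 had 48.8, 46.8, 48.6 and 47.5 CPM with ASO-L1, 39.5, 37.9, 33.4 and 35.6 with sO-L1 and 47.1, 43.1, 41.1 and 44.1 with ASO-Ctr. The sO-L1 libraries lay below all ASO-L1 and all ASO-Ctr libraries. COL26A1 rose by 0.39 with ASO-L1 against sO-L1 (log2, SE 0.05, 1.31-fold, adjusted p = 1.96e-05), while its log2 fold change over ASO-Ctr was 0.13 (adjusted p = 0.0567, not called). COL7A1, the anchoring fibril chain of skin, and COL28A1 were not called.

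The sense oligonucleotide moved few of the chains. With sO-L1 against ASO-Ctr, 0 chains were called higher and 1 lower by edgeR, beside 0.0695% higher and 0.22% lower over all genes. An unadjusted p under 0.05 was reached by 4 of the 49 tested chains, a share similar to that of all tested genes (1232 of 17264). The chain called was LAMA2, which fell by 0.56 (log2, SE 0.11, 1.48-fold lower, adjusted p = 0.0364). This call was lost without the replicate block (LAMA2 adjusted p = 0.941) and in 11 of 16 fits that left out libraries, among them those without any 1 of the sO-L1 libraries, ASO-Ctr replicates 1 to 3 or ASO-L1 replicates 2 and 3. The other 3 were COL26A1 (log2 fold change -0.26, adjusted p = 0.0551), LAMA1 (-0.20, adjusted p = 0.0923) and COL2A1 (-0.53, adjusted p = 0.155). DESeq2 called 3 chains lower and 0 higher, and limma on the authors' deposited log2 table called 4 lower. Over all genes 0.159% were lower with DESeq2 and 0.624% with limma.

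Genes whose products make or bind these chains were counted in the same way, beside the shares over all tested genes of 23.1% lower and 21.2% higher against ASO-Ctr and of 22.9% and 21.1% against sO-L1. Of 32 tested genes of collagen making (chaperones, hydroxylases, propeptide proteases and cross-linking enzymes), 15 (46.9%) fell, 2 (6.25%) rose and 15 were not called with ASO-L1 against ASO-Ctr, and 14 (43.8%) fell and 4 (12.5%) rose against sO-L1. PXDN, the peroxidase that cross-links type IV collagen, averaged 207 ± 25.1 CPM in ASO-L1 against 310.0 ± 19.2 CPM in ASO-Ctr cells and fell by 0.59 (log2, SE 0.05, adjusted p = 1.14e-07). PLOD2, a lysyl hydroxylase, averaged 37.8 ± 5.06 CPM in ASO-L1 against 58.1 ± 13.7 CPM in ASO-Ctr cells and fell by 0.60 (adjusted p = 7.70e-07). ADAMTS3 and ADAMTS14, proteases that trim procollagens, were 2.005-fold lower (adjusted p = 2.18e-05) and 1.98-fold lower (adjusted p = 0.000142). The 2 that rose were TLL2, a tolloid-type protease, by 0.50 (adjusted p = 0.00900), and P4HA2, a prolyl hydroxylase subunit, by 0.20 (adjusted p = 0.0444). Against sO-L1 the 4 that rose were TLL2, LOXL3, COLGALT1 and BMP1, with log2 fold changes of 0.57, 0.29, 0.16 and 0.42.

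Of 18 tested basement membrane partners, 8 (44.4%) fell and 1 (5.56%) rose against ASO-Ctr, beside 23.1% and 21.2% of all genes, and 9 fell and 2 rose against sO-L1. FRAS1, a protein of embryonic epithelial basement membranes, averaged 62.4 ± 13.5 CPM in ASO-L1 against 126 ± 15.2 CPM in ASO-Ctr cells and fell by 1.02 (log2, SE 0.08, adjusted p = 5.20e-08). Its partner FREM2 fell by 0.71 (adjusted p = 1.38e-07) and HSPG2, the proteoglycan perlecan, by 0.61 (adjusted p = 1.64e-06). SPARC, which binds collagen, was the member that rose, averaging 322 ± 19.4 CPM in ASO-L1 against 237 ± 23.2 CPM in ASO-Ctr cells, by 0.45 (log2, SE 0.04, adjusted p = 2.78e-07). Against sO-L1, SPARC (0.41) and NID1 (0.19), which links laminin to type IV collagen, rose.

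Of 22 tested matrix receptors, 7 (31.8%) fell and 6 (27.3%) rose against ASO-Ctr, shares not far from the 23.1% and 21.2% of all genes, and 6 fell and 7 rose against sO-L1. ITGA6, the alpha subunit of laminin-binding integrins, averaged 148 ± 11.9 CPM in ASO-L1 against 229 ± 3.69 CPM in ASO-Ctr cells and fell by 0.64 (log2, SE 0.05, adjusted p = 4.24e-08). ITGA5, of the fibronectin receptor, averaged 21.1 ± 3.20 CPM in ASO-L1 against 12.4 ± 2.33 CPM in ASO-Ctr cells and rose by 0.78 (adjusted p = 4.41e-07). CD44, the hyaluronan receptor, and the syndecan SDC4 rose by 1.07 and 0.33 (adjusted p = 6.05e-06 and 2.44e-05). Of 23 tested matrix proteases and inhibitors, 11 (47.8%) rose and 8 (34.8%) fell against ASO-Ctr, beside 21.2% and 23.1% of all genes, and 11 rose and 7 fell against sO-L1. TIMP3, which inhibits metalloproteases, the lysosomal protease CTSB and the plasminogen activator PLAT rose by 1.74, 0.61 and 1.08 (adjusted p = 4.24e-08, 2.70e-07 and 4.75e-07). In sO-L1 against ASO-Ctr, MMP16 fell by 0.93 (adjusted p = 5.35e-05) and no other gene of these 4 lists was called.

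The chains lie in long genes. The span from gene start to end had a median of 122 kb in the 49 tested chains, beside 29.9 kb in the 13891 of 17264 tested genes with a RefSeq span. Across genes, the Spearman correlation between span and log2 fold change of ASO-L1 over ASO-Ctr was -0.43 in the 49 chains and -0.27 in all genes with a span, and -0.42 and -0.24 over sO-L1. Genes are not independent replicates and share the libraries, so this is a description, and the part of gene length in the falls was not tested.

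In the authors' deposited table of ASO-L1 against sO-L1, 52 chains were listed, and 17 were lower and 5 higher at an adjusted p under 0.05, beside 16.7% lower and 16.1% higher of the 20856 genes of that table. All 17 and all 5 were among the chains called here in that comparison, and COL4A1, COL6A2, COL18A1 and LAMA1 were called here but not in the authors' deposited table.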

How the data were processed

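Stranded poly(A) libraries were made from 80 to 130 ng of RNA of sorted cells, per the labels' protocols. The submitters' processing notes name Trim Galore (version 0.4.0), the aligner TopHat2 (version 2.0.13), the counter featureCounts, Subread (version 1.5.0) and the build hg19; the annotation and the strand setting are not given in the sources used here. The authors deposited raw gene counts made after removal of duplicate reads (per the labels), which compresses the levels of abundant genes by an unknown amount. Another deposited table holds log2 normalized values with a batch correction, and a further table holds the authors' log2 fold changes, p-values and adjusted p-values for ASO-L1 against sO-L1, with a statistic score that the authors deposited and that was not used.

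Counts were tested here with edgeR 4.0.16 in R 4.3.3 (TMM scaling, filterByExpr with a minimum count of 10, two-sided quasi-likelihood F-tests) fitted to the 12 libraries together with terms for group and replicate number. P-values were Benjamini-Hochberg adjusted over 17264 genes and called under 0.05. Fold intervals are nominal 95% intervals, and levels are CPM with TMM scaling. The replicate number was kept as a block because the deviations of same-numbered libraries correlated in all 12 pairs (r 0.215 to 0.726 over 10549 genes whose mean count reached 200, median -0.225 for other pairs, threshold 0.1). Libraries of 1 group differed beyond counting error (chi-squared per gene 3.00 to 29.0), and 0 pairs were identical. The edgeR step was tested on simulated counts. Alternatives were DESeq2 1.42.0, limma 3.58.1 on the deposited log2 table, other scalings and filters, no block, and leaving libraries out. The limma fit had a term for group only, on values already batch corrected, and did not account for that correction. Its p-values may therefore be too small. The members, gene lists and chain pairs were chosen with earlier results of these data known. Named are all called chains, with values in every library where a group mean reached 5 CPM, the type IV chains and the main laminins, and from each list up to 4 called genes of smallest adjusted p (all where 5 or fewer were called in 1 direction). Library values of COL1A1, COL2A1, COL12A1 and LAMB3 were added after their values were seen. Promoter sequences are RefSeq's (GRCh38.p14), with entries for 41 of the 56 chains. For 1 tested chain and 1 gene of the lists, which are included in the counts, values are not reported here.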

Additional observations from a re-analysis of the deposited data

Results flagged for a closer look

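In each of the 49 tested chains and 3 groups the highest and lowest of the 4 libraries were compared with the other 3, and 8 of 147 sets had a library far from the rest. Chance alone gives about 1 in 20. In the ASO-L1 group, COL27A1 was low in replicate 1 at 18.2 CPM (others 22.2 to 22.3), and LAMA2 was low in replicate 3 at 4.40 CPM (others 5.62 to 5.84). COL4A3 was high in ASO-L1 replicate 2 at 0.800 CPM (others 0.377 to 0.433), and COL9A2 was high in ASO-L1 replicate 4 at 3.88 CPM (others 3.42 to 3.47). In sO-L1, COL4A4 was high in replicate 2 at 2.40 CPM (others 1.60 to 1.70) and COL14A1 was low in replicate 1 at 45.5 CPM (others 56.4 to 57.6). In ASO-Ctr, COL13A1 was high in replicate 1 at 1.76 CPM (others 0.859 to 0.985) and COL18A1 was low in replicate 2 at 171 CPM (others 191 to 194). The COL13A1 call against ASO-Ctr rests in part on that library, since it was lost without it (adjusted p = 0.0948).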

How the results depend on the processing

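No called chain reversed its direction under any alternative run. Some uncalled chains near 0 crossed it when libraries were left out. They were LAMB1 (ASO-L1 against ASO-Ctr down to -0.01), LAMC1 in ASO-L1 against sO-L1 (-0.038 to 0.035) and COL1A1 in sO-L1 against ASO-Ctr (-0.084 to 0.029). Of the 23 chains called for ASO-L1 against ASO-Ctr, 15 kept their call in every alternative, as did 14 of 26 against sO-L1 and 0 of 1 for sO-L1 against ASO-Ctr. LAMB3, and against sO-L1 also COL20A1, kept theirs wherever tested but were not tested at a minimum count of 50. Without the replicate block 16 chains were lower and 2 higher for ASO-L1 against ASO-Ctr, 13 lower (21 with it) and 5 higher against sO-L1, and 0 lower (1 with it) for sO-L1 against ASO-Ctr. Over all genes the lower calls were then 17.7% (23.1% with the block) against ASO-Ctr and 17.2% (22.9%) against sO-L1. The higher calls over all genes were 16.4% (21.2%) and 16.3% (21.1%). With a minimum count of 50, 3 chains were higher against sO-L1 (5 otherwise), and fewer chains, 39, were then tested. The higher calls over all genes were 26.1% in that run (21.1% with the main filter). For sO-L1 against ASO-Ctr, 3 chains were lower without a filter, 3 with DESeq2 and 4 with limma on the deposited log2 table. Over all genes the lower calls were 0.266%, 0.159% and 0.624% in these runs. The cause was not tested. Leaving out libraries gave 18 to 22 lower and 2 to 4 higher chains against ASO-Ctr. Over all genes 17.5% to 23.5% were then lower and 15.9% to 21.5% higher. Against sO-L1 there were 13 (without replicate number 2) to 24 (without ASO-L1 replicate 4) lower chains and 5 higher. Over all genes 17.3% and 23.6% were lower in these 2 fits, and 16% to 21.2% were higher over all such fits. For sO-L1 against ASO-Ctr 0 to 4 chains were lower and 0 higher. Over all genes these shares were 0.0468% to 1.37% and 0.00574% to 0.964%. Depth limits the low chains, since 3 reads are 0.0534 to 0.128 CPM, and intervals cover counting and replicate error together. A chain that was not called is not shown to be unchanged. All values come from 1 cell line at 48 h, and protein was not measured.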
